A study of Homo sapiens with 6 samples.

Results

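The laminin and nidogen genes of the basement membrane were taken from the deposited table by gene symbol. The 10 genes were LAMA1, LAMA3, LAMA4, LAMA5, LAMB1, LAMB2, LAMB3, LAMC1, NID1 and NID2, of 61806 genes in all. Of these, 8 encode laminin chains and 2 encode nidogens. The study sequenced poly(A) RNA from the established human line HEK293, which goes back to embryonic kidney. In 3 libraries (mutant) the cells carried rs16851030, a DNA variant in the gene of the adenosine A1 receptor, placed there by CRISPR homology-directed repair, and 3 libraries came from wild-type cells. All cells were grown in the same serum-containing medium, and the comparison asks which transcripts differ once the variant is present. How many edited clones the mutant libraries represent is stated in none of the sources used here, and an effect of the variant and a difference between clones cannot be told apart. The series' design calls the libraries biological replicates without naming their cultures, and p-values measure the spread between these libraries.

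Basement membranes are thin sheets of matrix under epithelia and around muscle, nerve and vessel cells. Laminins build the sheet: each is a trimer of an alpha, a beta and a gamma chain that assembles inside the cell, and the secreted trimers join into a network at the cell surface. The alpha chain carries the main binding sites for integrins and dystroglycan. The gamma 1 chain carries the site to which nidogens bind, and nidogens in turn bind collagen IV, so they link the laminin network to the collagen network. In the developing kidney the alpha 1 chain is an early epithelial laminin, and the alpha 5 and beta 2 chains prevail in the mature glomerulus.

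Promoters of 9 of the 10 genes were found in RefSeq (GRCh38.p14), LAMA1 being the other. For LAMA3 the 1 start listed, at 23873020, lies inside the deposited gene, which begins at 23689453. The promoter at that upstream end was therefore not searched. LAMB3 had 3 starts listed, and the most upstream was used. Stretches before the start are shown for LAMB1 and LAMA5, which had the largest rises among the 8 tested genes of the 10, for LAMC1, the tested gene with the smallest rise, and for NID1. Each is given 5′ to 3′ on the gene's strand, outside annotated exons, and capitals mark the GC box, GGGCGG, on either strand; some matches of LAMB1 and LAMC1 lie outside the stretch shown. The LAMB1 stretch is chr7:108003256-108003411 (minus strand), LAMA5 is chr20:62367313-62367472 (minus), LAMC1 is chr1:183023260-183023419 (plus) and NID1 is chr1:236065163-236065322 (minus).
LAMB1: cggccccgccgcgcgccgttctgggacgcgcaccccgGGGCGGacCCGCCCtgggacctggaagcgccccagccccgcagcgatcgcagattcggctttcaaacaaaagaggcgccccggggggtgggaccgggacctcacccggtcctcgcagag
LAMA5: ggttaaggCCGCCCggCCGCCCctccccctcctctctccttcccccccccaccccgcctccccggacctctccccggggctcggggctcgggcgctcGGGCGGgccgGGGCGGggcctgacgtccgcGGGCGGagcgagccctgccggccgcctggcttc
LAMC1: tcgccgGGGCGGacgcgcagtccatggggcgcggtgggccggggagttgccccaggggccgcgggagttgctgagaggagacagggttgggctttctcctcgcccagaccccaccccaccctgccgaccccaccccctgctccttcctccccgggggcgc
NID1: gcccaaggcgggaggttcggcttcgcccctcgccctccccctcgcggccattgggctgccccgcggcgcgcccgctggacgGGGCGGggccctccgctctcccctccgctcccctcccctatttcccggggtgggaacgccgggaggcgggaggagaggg
The GC box was present in 8 of the 9 promoters (250 bases before to 50 after the start), LAMA4 lacking it, against 45% of 35116 promoters searched. LAMA5 held 5 matches, LAMB1 and NID2 4 each, LAMC1 3, and the other 4 genes 1 each. The AP-1 motif TGANTCA was found in LAMA3 alone, at 2 places before its internal start, against 7.71% of all promoters. The EGR1 motif GCGNGGGCG was found in LAMC1 alone, where it overlaps a GC box, against 9.43%. The TEAD motif GGAATG was in none of the 9, against 14% of all promoters. The GC content of the 9 windows ran from 51.3% in LAMA4 and 58.7% in LAMB2 to 82.7% in LAMA5, against a median of 58.7% over all promoters. The matches are of letters alone and were not tested as binding sites.

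The libraries held 16013460 to 20349609 counts assigned to genes. Genes with a mean of at least 1 FPKM (fragments per kilobase of exon, scaled to the library's total counts) over the 6 libraries were tested with edgeR's quasi-likelihood test, 12550 in all, and called at a Benjamini-Hochberg adjusted p below 0.05. By this rule 58.1% of genes were called, 3681 higher (29.3%) and 3606 lower (28.7%) in the mutant. Of the called genes 50.5% were higher, and 62.4% (4188 higher, 2524 lower) in limma on log2(TPM + 1), where TPM is FPKM rescaled to a common total. Markers of the line were present: 10 of 13 genes of embryonic kidney and HEK293 cells had a mean of at least 1 FPKM, PAX8 was at 0, 2 rose (EYA1 and NEFL) and 7 fell. Their summed level was 157 to 160 FPKM in mutant and 211 to 243 in wild-type libraries, most of it from VIM (87.4 ± 1.13 and 153 ± 11.6 FPKM, SD, n = 3). Of the markers of mature kidney, endothelial, muscle and Schwann cells none reached a mean of 1 FPKM, and of fibroblast, squamous and blood markers 1 each did (COL1A1, KRT10 and HBA1). HBA1 and, among the line's markers, LHX1 reached it only through their mutant level (1.65 and 1.2 FPKM, against 0.548 and 0.891). The summed level of the 8 fibroblast markers was 6.05 to 6.63 FPKM in the mutant and 3.59 to 3.71 in the wild type, nearly all of it from COL1A1 and COL3A1, while DCN, FAP, THY1 and COL1A2 were at or near 0. The sums of muscle (1.57 to 2.09 against 0.79 to 0.999 FPKM), Schwann (0.665 to 0.676 against 0.242 to 0.497), blood (2.29 to 3.37 against 0.944 to 1.53) and endothelial markers (1.15 to 1.39 against 0.816 to 1.12) were also higher in the mutant without overlap. Those of mature kidney and squamous markers overlapped. The part of these markers in the laminin values was not tested. In bulk RNA, more cells with a transcript and more of it per cell cannot be told apart.

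The laminin and nidogen genes with a mean of at least 1 FPKM were higher in the mutant, by 1.08-fold to 2.04-fold, while LAMA1, at a trace level, was lower. All 8 that reached the minimum rose (29.3% of all tested genes rose), with LAMB1 and LAMA5 close to a doubling and LAMC1 almost level. Of these rises, 6 kept their call under every alternative tried, and those of LAMA4 and LAMC1 did not. The median log2 fold change of the 8 was 0.53, against 0.00 over all tested genes. LAMA3 reached the minimum only through its level in the mutant, so the 8 genes are not a neutral sample of the 10. The 3 mutant values lay above all 3 wild-type values for 7 genes (34.9% of all tested genes did so), below them for LAMA1, and overlapped them for LAMA4 and LAMB3.

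**Figure D1:**
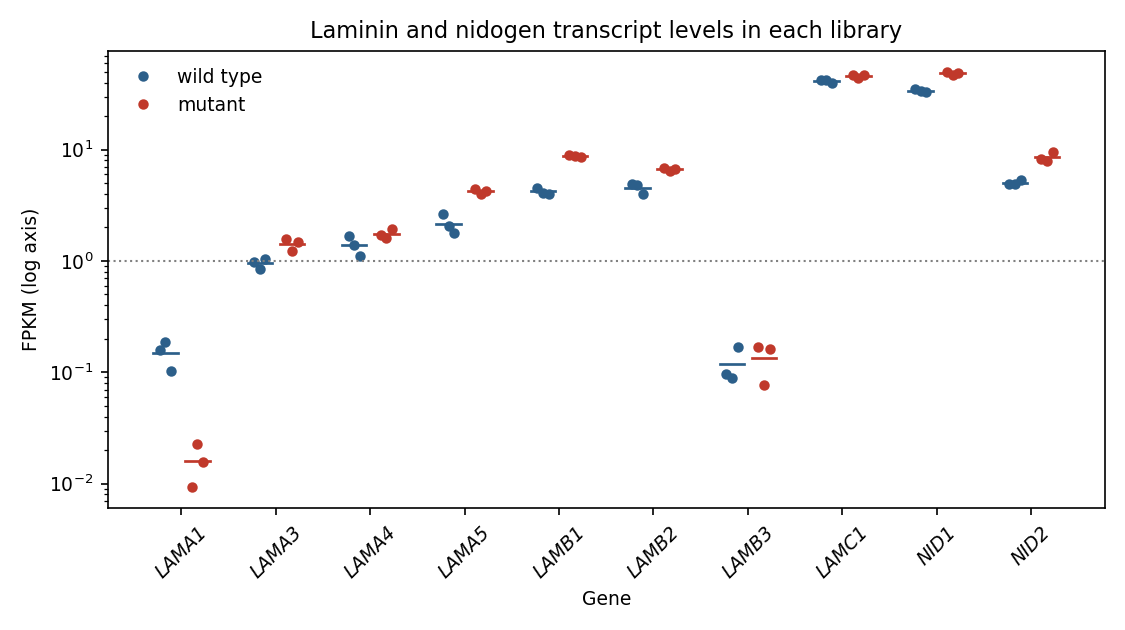
FPKM of each gene in each library on a log axis, wild type in blue and mutant in red, with a short bar for the mean of 3 libraries and a dotted line at 1 FPKM. LAMC1 and NID1 stand at 33.1 to 50.3 FPKM in every library, and LAMA1 and LAMB3 are at 0.187 or less in all 6.

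Among the beta chains, LAMB1 (ENSG00000091136, chromosome 7, 107923799 to 108003213, minus strand) encodes the beta 1 chain of the widespread laminins. Its level was 8.90, 8.85 and 8.66 FPKM in the mutant libraries, in order of replicate number, against 4.56, 4.06 and 4.03 for wild-type cells. The mutant libraries lay close together and well above the wild type. The log2 fold change was 1.03 (SE 0.05, adjusted p = 2.63e-11), the largest rise among the 10 genes, and LAMB1 was among the 3.55% of tested genes that rose by at least 2-fold. It fell just short of 2-fold (0.99 on the log2 scale) without an expression filter, with edgeR's own count filter and without wild-type replicate 3, and was at 0.91 in limma on log2(FPKM + 1). LAMB2 (ENSG00000172037, chromosome 3, 49121114 to 49133118, minus strand) encodes the beta 2 chain of glomerular and synaptic basement membranes. It stood at 6.90, 6.39 and 6.75 FPKM in the mutant and 4.92, 4.77 and 3.97 in the wild type, again without overlap. Its log2 fold change was 0.52 (SE 0.08, adjusted p = 1.72e-05). A related pseudogene, LAMB2P1, took 5 to 21 counts per library, against 484 or more for LAMB2, and reads shared between them are uncertain. LAMB3 (ENSG00000196878, chromosome 1, 209614870 to 209652425, minus strand), the beta chain of the epidermal laminin, had 6 to 16 counts per library and 0.0767 to 0.170 FPKM, with both groups over the same range. In the fit without an expression minimum its log2 fold change was 0.13 (95% interval -0.77 to 1.05, adjusted p = 0.863). With edgeR's own count filter it was 0.14 (-0.78 to 1.06, adjusted p = 0.808), and no difference was detectable at this depth.

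The alpha chains, which set a trimer's receptor binding, did not move as a block. LAMA5 (ENSG00000130702, chromosome 20, 62307955 to 62367312, minus strand), the broadly expressed alpha 5 chain, was the most abundant of them. It stood at 4.47, 3.96 and 4.27 FPKM in the mutant and 2.64, 2.05 and 1.80 in the wild type. Each mutant value exceeded every wild-type value, and the log2 fold change was 0.93 (SE 0.10, adjusted p = 2.85e-07). LAMA3 (ENSG00000053747, chromosome 18, 23689453 to 23956222, plus strand), the epithelial alpha 3 chain, was at 1.59, 1.24 and 1.47 FPKM in the mutant and 0.989, 0.855 and 1.04 in the wild type. The groups were apart by a small margin, and the change was 0.54 on the log2 scale (SE 0.11, adjusted p = 3.08e-04). LAMA4 (ENSG00000112769, chromosome 6, 112107931 to 112254939, minus strand), the alpha 4 chain of vessels and mesenchyme, was at 1.70, 1.62 and 1.92 FPKM in the mutant and 1.67, 1.38 and 1.10 in the wild type. Wild-type replicate 1 lay within the mutant range, and the log2 fold change of 0.30 (SE 0.12, adjusted p = 0.0394) was just called. The call was lost without mutant replicate 1 (adjusted p = 0.0696) or 3 (0.160) and without wild-type replicate 2 (0.0658) or 3 (0.237). The fold change was 0.16 without wild-type replicate 3 and 0.46 without wild-type replicate 1. In limma on log2(FPKM + 1) the adjusted p was 0.119.

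LAMA1 (ENSG00000101680, chromosome 18, 6941742 to 7117797, minus strand), the alpha 1 chain of early embryonic basement membranes, went the other way at a very low level. Its counts were 3, 6 and 4 in mutant and 45, 50 and 29 in wild-type libraries, or 0.0093, 0.0225 and 0.0158 FPKM against 0.158, 0.187 and 0.103. The lowest wild-type library thus held more counts than the 3 mutant libraries together. From the summed counts, 13 against 124, and the library totals, the level was 9.65-fold lower in the mutant, with an exact 95% interval of 5.44-fold to 18.6-fold that covers counting error only. Without an expression minimum, edgeR's quasi-likelihood test gave a log2 fold change of -3.30 (adjusted p = 3.78e-16), where 13.3% of all genes with a count were called lower. That fit borrowed so much information between genes that its p-values are too small. Among the 16229 genes kept by edgeR's own count filter (27.0% of them called lower), LAMA1 changed by -3.30 (SE 0.41, adjusted p = 4.75e-07). In DESeq2 on all genes with a count it changed by -3.34 (adjusted p = 2.12e-08). An exact two-sided permutation test on log2 FPKM gave p = 0.1, the smallest that 3 against 3 libraries allow.

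**Figure D2:**
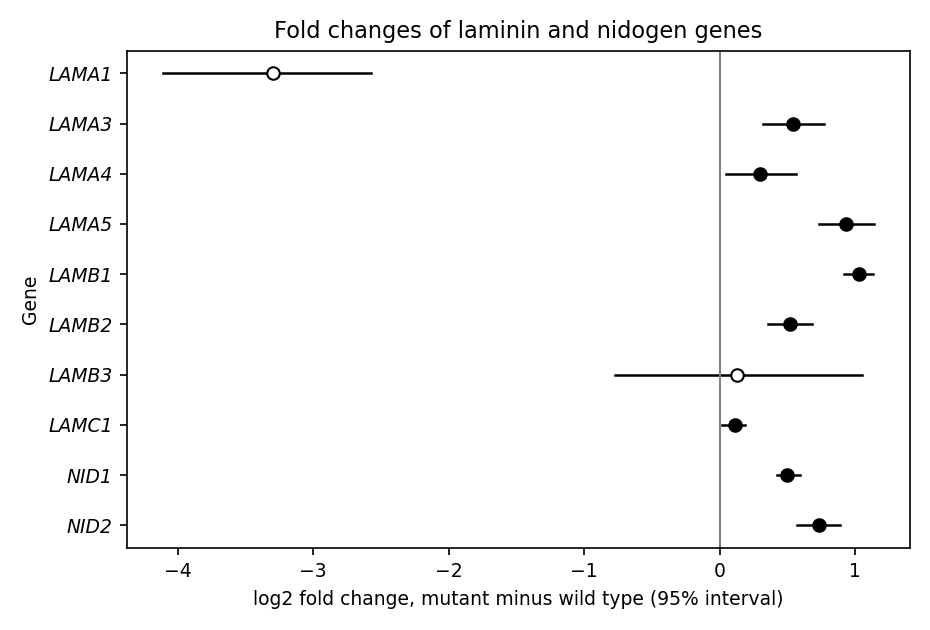
Log2 fold change of each gene, mutant minus wild type, with its 95% interval from edgeR's quasi-likelihood fit on 3 libraries a group; filled points come from the fit with the expression minimum, open points (LAMA1 and LAMB3) from the fit without it. LAMB1 and LAMA5 lie near 1, LAMC1 at 0.11 and LAMA1 at -3.30. The fit behind the open points gives p-values that are too small. With edgeR's own count filter the interval is -4.19 to -2.49 for LAMA1 and -0.78 to 1.06 for LAMB3.

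LAMC1 (ENSG00000135862, chromosome 1, 183023420 to 183145592, plus strand) encodes gamma 1, the partner in most laminin trimers and the docking site of nidogens. It stood at 46.4, 43.8 and 46.4 FPKM in the mutant and 42.3, 41.9 and 39.8 in the wild type. The groups did not overlap, but the log2 fold change was 0.11 (SE 0.04, 95% interval 0.02 to 0.19, adjusted p = 0.0333), the smallest of the tested laminin and nidogen genes. The call was lost without mutant replicate 1 (adjusted p = 0.102) or 3 (0.126), without wild-type replicate 3 (0.159), without an expression filter (0.272) and with edgeR's own count filter (0.149).

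Both nidogens rose. NID1 (ENSG00000116962, chromosome 1, 235975830 to 236065109, minus strand), the main nidogen of most tissues, was at 50.3, 47.0 and 49.3 FPKM in the mutant and 34.7, 33.3 and 33.1 in the wild type. The values within each group were close, and the log2 fold change was 0.50 (SE 0.04, adjusted p = 1.47e-08). NID2 (ENSG00000087303, chromosome 14, 52004809 to 52069059, minus strand), its paralog, was at 8.23, 7.91 and 9.58 FPKM in the mutant and 4.92, 4.89 and 5.34 in the wild type. Mutant replicate 3 was the highest library, and the log2 fold change was 0.73 (SE 0.08, adjusted p = 2.63e-07).

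Some of these genes overlap expressed genes on the opposite strand, and the sources used here do not say whether counting used strand. LAMB1 shares 7932 bases of its span with DLD, which had 3452 to 4454 counts per library and changed by -0.11 (adjusted p = 0.0439). NID2 shares 5886 bases with RTRAF (-0.02, adjusted p = 0.797), and LAMA5 shares 908 bases with ADRM1 (-0.67, adjusted p = 1.35e-08). How reads in the shared bases were assigned was not tested. The antisense genes LAMC1-AS1, LAMA4-AS1 and LAMA5-AS1 had at most 11 counts in a library.

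The order of levels in FPKM was led by LAMC1 (41.3 ± 1.37, SD, n = 3) and NID1 (33.7 ± 0.905) in the wild type, and by NID1 (48.9 ± 1.66) and LAMC1 (45.5 ± 1.46) in the mutant. NID2, LAMB2 and LAMB1 followed in the wild type, at 5.05 ± 0.249, 4.55 ± 0.509 and 4.22 ± 0.297 FPKM, and each overlapped its neighbour in that order. In the mutant LAMB1 (8.80 ± 0.128) and NID2 (8.57 ± 0.888) overlapped, and LAMB2 (6.68 ± 0.260) lay below both. LAMA5, LAMA4 and LAMA3 came next in both groups without overlap, and LAMA1 and LAMB3 were last, overlapping in the wild type only.

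These levels rest on the gene lengths of the deposited table, which sum all annotated exons. For LAMB1 that length is 18592 bases, 3.22 times its longest coding transcript in GENCODE release 29 (5766 bases, 32 exons), whereas for LAMC1 the ratio is 1.07. Per transcript length LAMB1 stood at 13.6 ± 0.958 in wild-type and 28.4 ± 0.412 in mutant libraries (fragments per kilobase, scaled as FPKM, SD, n = 3), above NID2 (6.53 ± 0.322 and 11.1 ± 1.15) and LAMB2 (5.51 ± 0.616 and 8.08 ± 0.314) in both groups. The fold changes do not depend on the length, but this order does: NID1 and LAMC1, for example, stood at 48.4 ± 1.65 and 48.7 ± 1.57 per transcript length in the mutant, with overlapping values. LAMA5 (2.71 ± 0.541) and LAMA4 (2.53 ± 0.517) likewise overlapped per transcript length in the wild type.

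Summed over all 5 alpha genes, including LAMA2, the level was 4.74 ± 0.723 FPKM in wild-type and 7.86 ± 0.507 in mutant libraries (SD, n = 3). The 4 beta genes summed to 8.89 ± 0.706 and 15.6 ± 0.325, and the gamma genes to 43.1 ± 1.3 and 48.1 ± 1.58. Gamma transcripts thus exceeded alpha and beta transcripts in both groups, also per transcript length, where the wild-type sums were 7.02 ± 1.07 alpha, 19.2 ± 1.41 beta and 46.8 ± 1.39 gamma. LAMA5 made up 45.5% ± 2.09 of the wild-type alpha sum and 53.9% ± 0.897 of that in mutant libraries (SD, n = 3). Per transcript length these LAMA5 shares were 38.4% ± 1.76 and 45.5% ± 0.864. LAMA2 went from 1.79% ± 0.264 to 5.42% ± 0.523, or from 3.3% ± 0.484 to 9.99% ± 0.932 per transcript length. LAMA4 went from 29% ± 2.03 to 22.3% ± 1.53, and LAMA1 from 3.15% ± 0.840 to 0.206% ± 0.0983. LAMB1 took 47.5% ± 1.93 of the wild-type beta sum and 56.4% ± 1.2 of that in mutant libraries, or 70.7% ± 1.63 and 77.5% ± 0.835 per transcript length. LAMC1 was 95.8% ± 0.959 and 94.7% ± 0.342 of the gamma sum. These shares are given as a description, without a test.

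**Figure D3:**
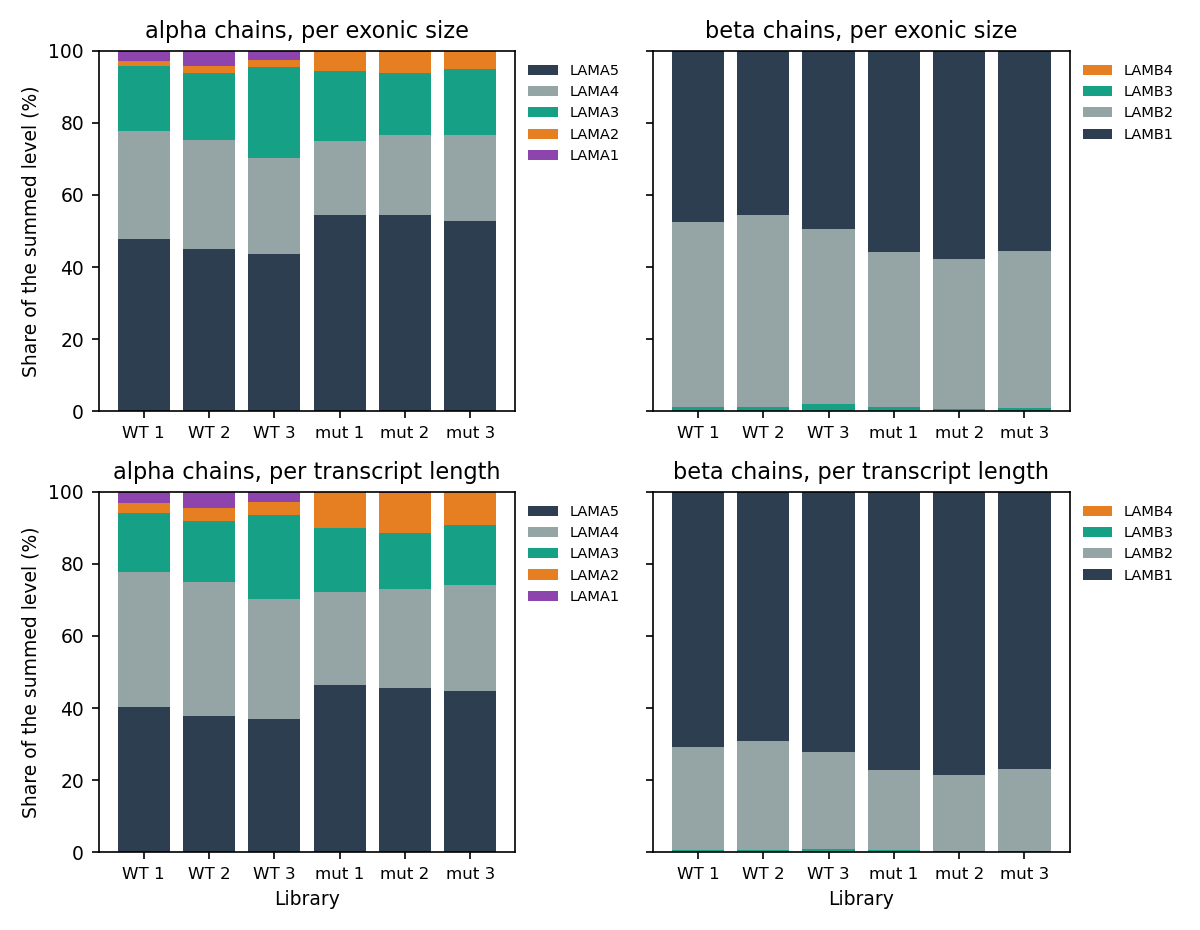
Share of each gene in the summed level of the alpha chains (left) and beta chains (right) in each library, with levels per exonic size (top) or per longest coding transcript (bottom); WT is wild type and mut is mutant. Per exonic size LAMA5 takes 43.6 to 47.7% of the alpha sum in wild-type libraries and 52.9 to 54.4% in mutant libraries, and the LAMA1 segment is nearly lost in the mutant.

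Ratios within a library do not depend on how libraries are scaled, and 6 pairs were compared as log2 ratios of FPKM. LAMB1 against LAMB2 went from -0.11 ± 0.13 in the wild type to 0.40 ± 0.06 in the mutant (SD, n = 3), so the beta 1 transcript gained on beta 2. LAMC1 against LAMB1 went from 3.29 ± 0.08 to 2.37 ± 0.06, and NID1 against LAMC1 from -0.29 ± 0.04 to 0.10 ± 0.01. LAMA5 against LAMA4 went from 0.65 ± 0.07 to 1.28 ± 0.12. LAMA1 against LAMA5 went from -3.88 ± 0.37 to -8.15 ± 0.73, a difference of -4.27 that shrank to -2.04 with 0.1 FPKM added to both. NID1 against NID2 moved least, from 2.74 ± 0.10 to 2.52 ± 0.13. In all 6 pairs the groups did not overlap, and the exact two-sided permutation test gave p = 0.1 for each (adjusted p = 0.1 over the 6), the smallest it can give with 3 against 3 libraries. How often ratios of other tested genes separate the groups was not counted, so the 6 separations are not a trait of these genes.

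**Figure D4:**
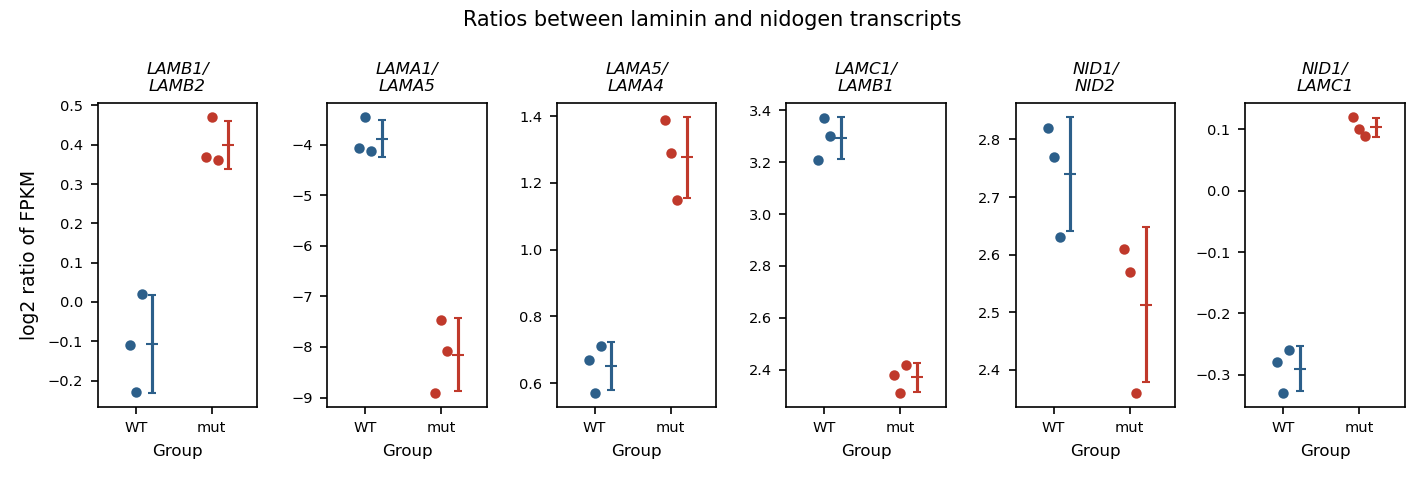
Log2 ratio of FPKM for 6 pairs of genes in each library, wild type (WT) in blue and mutant (mut) in red, with the mean and SD of 3 libraries beside the points; each panel has its own axis. The groups are apart in every panel, by 0.22 for NID1/NID2 up to 4.27 for LAMA1/LAMA5.

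Other laminin chain genes were read as well. LAMA2, the alpha 2 chain of muscle and nerve, had counts of 234, 194 and 170 in mutant and 39, 39 and 38 in wild-type libraries, and its mutant level was 0.424 ± 0.0196 FPKM against 0.0836 ± 0.00344 (SD, n = 3). With edgeR's own count filter it rose by 2.27 on the log2 scale (SE 0.15, adjusted p = 5.48e-11). LAMC3, a gamma chain outside the main epithelial laminins, rose from 1.37 ± 0.318 to 2.09 ± 0.167 FPKM (log2 fold change 0.57, adjusted p = 0.00117). LAMB4 had 0 or 1 count per library.

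The more abundant collagens of the basement membrane were higher in the mutant. Of 10 listed, 5 reached the minimum and all 5 rose (29.3% of all tested genes rose): COL4A6 (0.81), COL18A1 (0.76), COL4A5 (0.66), COL4A2 (0.55) and COL4A1 (0.52) on the log2 scale. The first and the last 3 encode collagen IV chains, to whose network nidogens bind. Of the other 5, which were not tested, 3 overlapped between groups, among them COL7A1 (0.993 FPKM in the mutant and 0.929 in the wild type). COL4A2, the most abundant, stood at 9.71 ± 0.500 FPKM in the mutant and 6.50 ± 0.135 in the wild type (SD, n = 3). Of 21 other basement membrane components, 10 were tested, of which 8 rose and 1, SMOC1, fell (-0.26, adjusted p = 0.0170), against 29.3% and 28.7% of all tested genes. NPNT and FBLN2 reached the minimum only through their mutant level (2.39 and 1.37 FPKM, against 0.923 and 0.671), so the count is not a neutral one. The largest rises were those of FBLN5, an elastic fibre protein, and NPNT, an integrin alpha 8 ligand of the embryonic kidney, each at 1.34, followed by FBLN2 (1.01, named after its value was seen) and by FREM2 (0.96) and FRAS1 (0.91), which act together in epithelial attachment. FBLN1 (0.38) and PXDN (0.28) rose less. VWA1, named after its value was seen, did not pass (0.21, adjusted p = 0.132). The list medians were 0.66 and 0.64.

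Of 16 laminin receptors listed, 13 were tested, 7 rose, 3 fell and 3 did not pass (median 0.28), where 29.3% of all tested genes rose and 28.7% fell. ITGA7 and ITGA9 reached the minimum only through their mutant level (1.57 and 1.38 FPKM, against 0.671 and 0.757). The syndecan SDC1, a heparan sulfate proteoglycan, rose by 1.17 (15.2 ± 0.308 FPKM in the mutant, 6.59 ± 1.6 in the wild type, SD, n = 3), SDC2 by 0.28, and the laminin-binding integrin chain ITGA7 by 1.19. ITGB1, the beta chain shared by most laminin-binding integrins, was 9.41, 9.44 and 9.28 FPKM in the mutant and 12, 11.4 and 11.9 in the wild type, a change of -0.36 (SE 0.04, adjusted p = 1.03e-06). DAG1, the dystroglycan gene, changed by -0.39 (SE 0.05, adjusted p = 2.45e-06), from 15.2 ± 0.669 to 11.8 ± 0.369 FPKM. Both fell with no overlap between groups, while the main alpha and beta laminin transcripts rose. ITGB1 lies on chromosome 10, as does VIM, and the part of whole-chromosome changes in their falls was not tested. MCAM, named after its value was seen, also fell (-0.16, adjusted p = 0.0461). CD151 (-0.03, adjusted p = 0.697) and RPSA (0.07, adjusted p = 0.167) did not pass, and RPSA has many processed pseudogenes that make its value uncertain.

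Laminin binding by dystroglycan depends on a sugar chain built by a series of enzymes. Of 24 genes for this glycosylation and for the anchoring of dystroglycan, 20 were tested, 6 rose, 7 fell and 7 did not pass, with a median of 0.02. These shares were near those of all tested genes (29.3% and 28.7%), so the genes below are values within the list and not a pattern of it; SGCE, among the rises, reached the minimum only through its mutant level. LARGE2, which extends the laminin-binding sugar, rose by 0.58 and DPM3, of dolichol phosphate mannose synthesis, by 0.67, whereas DOLK, the dolichol kinase, changed by -0.57, POMT1, which adds the first mannose, by -0.36, and DPM2 by -0.28. SNTB2, a syntrophin, rose by 0.45, and B4GAT1 did not pass (0.03, adjusted p = 0.671). A further list held 18 enzymes that cut laminins, nidogens or their precursors, directly or through another enzyme. Of these, 8 were tested and all 8 rose (median 0.36), where 29.3% of all tested genes rose. They were led by the gelatinase MMP2, at 12.9, 12.3 and 12.6 FPKM in the mutant and 2.82, 2.75 and 2.92 in the wild type (log2 fold change 2.12, SE 0.07, adjusted p = 4.22e-13). The others named by rule were the proprotein convertases PCSK5 (0.46), FURIN (0.35) and PCSK6 (0.26) and the metalloprotease ADAMTS1 (0.29).

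**Figure D5:**
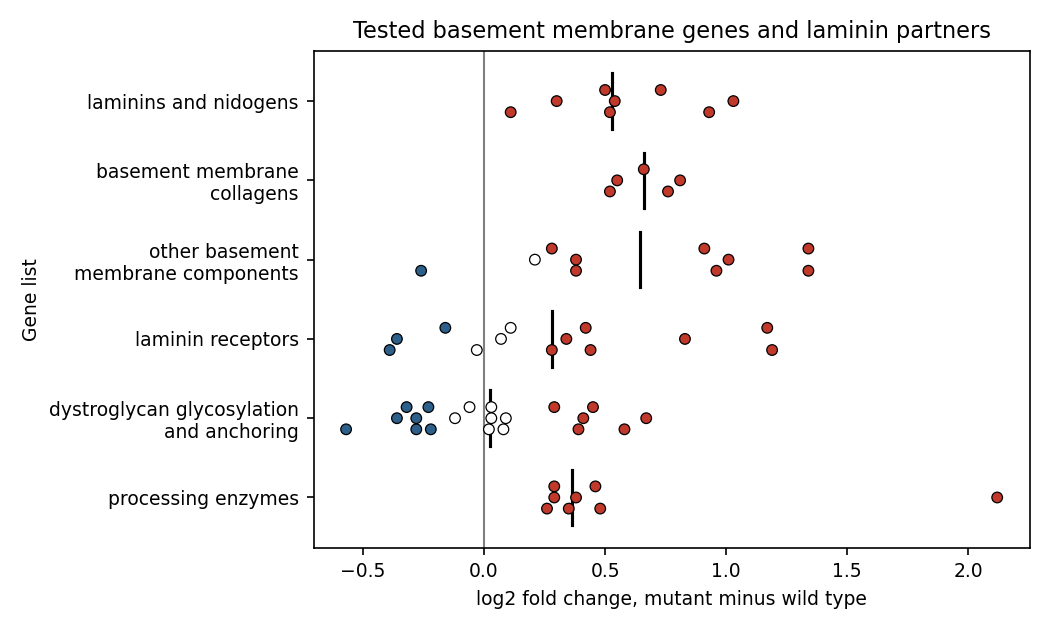
Log2 fold change, mutant minus wild type, of each tested gene in 6 lists; red points rose and blue points fell at an adjusted p below 0.05 in edgeR's quasi-likelihood test, white points did not pass, and a vertical bar marks the list median. The laminins and nidogens, the collagens and the processing enzymes lie to the right of 0, and the receptors and dystroglycan genes lie on both sides.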

How the data were processed

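Poly(A) RNA of 6 HEK293 libraries was grouped by the genotype in their titles. The deposited table holds raw counts per gene and FPKM values. The submitters' processing notes name cutadapt, HISAT2 2.0.1, HTSeq and GRCh38 for the counts the authors deposited; none of the sources used here states the annotation release or the strandedness. The deposited FPKM values equalled counts divided by exonic size and assigned total, rescaled, within 0.011. Library totals were adjusted by edgeR's TMM (trimmed mean of M-values) factors, 0.982 to 1.014, and counts were tested over all genes with edgeR 4.0.16 (glmQLFit, glmQLFTest, genotype as the single factor, Benjamini-Hochberg adjustment, two-sided) in R 4.3.3. Members under the minimum were read from the same fit without it, over 32852 genes with a count. DESeq2 1.42.0 and limma 3.58.1 were alternatives. edgeR's fit, with and without a term for replicate number, DESeq2 and limma on log2(FPKM + 1) were run on simulated counts of genes above the minimum. The other fits, among them those without the minimum, were not simulated. The simulation changed far fewer genes than were called here. Fold changes are log2, mutant minus wild type, and intervals use the fit's standard error (SE). No libraries of a group were duplicates (chi-square per degree of freedom of at least 2.28). Named genes were all members, other laminin chains (not all are reported here), and of each list up to 5 with the smallest adjusted p and up to 3 with the highest FPKM. The members and lists were chosen with earlier results of these data known, and lists are given by counts and medians alone. Promoters came from RefSeq; transcript lengths came from GENCODE release 29.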

Additional observations from a re-analysis of the deposited data

How the results depend on the processing

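Of 161 alternative values for single laminin and nidogen genes, 145 kept the direction and the side of the threshold; 14 rises, all of LAMA4 or LAMC1, lost their call, and LAMB3, not called in any, changed sign without mutant replicate 1 (-0.07) and without wild-type replicate 2 (-0.03), its range with a library left out being -0.07 to 0.49. The number of these genes called was 6 to 8 with a library left out, and 5 among genes with a mean of at least 5 FPKM, where only 5 were tested. Over all genes the count of calls was 6437 to 7407 with a library left out and 4600 of 7304 tested at that stricter minimum. LAMA1 kept its call in all 14 alternatives without an expression minimum, from -3.64 to -0.18, the smallest with a pseudocount of 1. Levels per transcript length were chosen after seeing the data; they, raw counts and leaving out a library could not turn the direction of the 6 log2 ratios, whose groups do not overlap, so they are no sign of stability. Libraries with the same replicate number did not deviate together (r = 0.004, -0.044 and -0.013), so the numbers do not pair them; with the replicate block 7074 genes and 7 of the laminin and nidogen genes were called, LAMC1 being lost (adjusted p = 0.0674). Low counts limit LAMA1 and LAMB3, and the intervals of summed counts cover counting error only.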

Other observations

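The genes next to the laminin and nidogen genes that reached a mean of 1 FPKM were read for comparison, and those named were chosen after their values were seen. NRCAM, a neuronal adhesion gene 144 kb from LAMB1, changed by 1.07 (adjusted p = 3.95e-09) and CBLL1, on the other side, by -0.36 (adjusted p = 5.51e-05). GNG2, 25.5 kb from NID2, changed by 1.42 (adjusted p = 2.39e-09), and GNG4, 325 kb from NID1, by 1.02 (adjusted p = 1.78e-09); both encode G protein gamma subunits. G0S2, 23 kb from LAMB3, changed by 1.88 (adjusted p = 1.63e-07), and FAM229B, 5.14 kb from LAMA4, by 0.78 (adjusted p = 1.22e-05). NMNAT2 near LAMC1 (0.65, adjusted p = 2.45e-04), PTGER2 near NID2 (0.56, adjusted p = 0.0331) and MARCKS near LAMA4 (-0.17, adjusted p = 0.00251) also passed. A gene without a symbol, 19 kb from LAMA5, changed by 1.18 (adjusted p = 0.00136). Some neighbours did not pass, such as NPC1 near LAMA3 (0.02, adjusted p = 0.834) and CCDC71 near LAMB2 (0.04, adjusted p = 0.756). USP19, 0.176 kb from LAMB2, fell (-0.19, adjusted p = 0.00378). Of all tested genes 29.3% rose and 28.7% fell, so the genes named are single values and not a pattern. The median log2 fold change of 24 tested genes around each member ran from -0.09, at LAMA5, to 0.14, at LAMB1. On chromosome 20, where LAMA5 lies, the median of the 328 other tested genes was -0.13.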
